A study of Saccharomyces cerevisiae with 14 samples.

Results

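The RNA that coprecipitated with myc-tagged Dhh1 was compared with the RNA left on the same antibody beads by untagged cells, across every RNA that the count table types as an mRNA. The comparison rests on 3 Dhh1 IP libraries and 3 UT IP libraries, 6 of the 14 libraries of the series, and on 4792 mRNAs among 5945 RNAs. Both groups were BY4741 cells grown at 30° in rich YPAD medium without stress, cross-linked with formaldehyde and immunoprecipitated with an antibody to the myc epitope. The Dhh1 IP came from cells that carry the tag on Dhh1, and the UT IP came from cells with no tag, so it is a mock IP and not a sample of total RNA. Whether the tagged strain was a single clone is not given in the sources used here. The other libraries were 3 IPs each of tagged Ccr4 and Puf5 and 2 inputs of untagged cells.

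Dhh1 is a cytoplasmic DEAD-box RNA helicase of budding yeast. It binds the Ccr4-Not deadenylase and the decapping machinery, represses translation, promotes removal of the 5′ cap, and gathers in P bodies under stress. Decapped mRNAs are then degraded by the exonuclease Xrn1. Dhh1 is also known for its link to slow translation elongation, since mRNAs rich in poorly translated codons depend on it for rapid decay.

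Between 20536505 and 23943342 reads were counted per library in these groups, and rRNA took 95.5% to 97.4% of them. mRNAs received 680587 to 872795 counts per Dhh1 IP library and 476905 to 522066 per UT IP library. The median tested mRNA averaged 53.2 counts, so single mRNAs were measured with limited precision. Of the marker genes for the a mating type, *MFA1*, *MFA2*, *STE2*, *BAR1* and *STE6* had 47 or more counts in every one of the 14 libraries. Of the genes deleted in BY4741, *LEU2* stayed at 0 to 2 counts and *MET17* at 0 to 3. *URA3* had 5 to 18 counts in the UT IP and 0 to 2 in the Dhh1 IP, and *HIS3* had 14 to 39 in the UT IP and 60 to 108 in the Dhh1 IP, and the part of these genes in any result was not tested.

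Nearly every mRNA was more abundant in the Dhh1 IP than in the UT IP when counts were scaled to all reads of a library. On that scale 4577 of 4642 tested mRNAs had a log2 ratio above 0 and 65 had one below 0, with a median of 0.94. The median ran from 0.81 to 1.11 over the 9 pairings of a Dhh1 IP with a UT IP library. Enriched mRNAs, with more than a 2-fold difference at a false discovery rate (FDR) under 1% in edgeR's quasi-likelihood test, numbered 1802, which is 38.8% of those tested. At that FDR 2 mRNAs were lower than in the UT IP, both by less than 2-fold. The 150 mRNAs that did not pass the filter on counts had a median of 2.58 counts per library, at most 18.3, and 13 of them had no count in any of the 6 libraries.

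Because this shift was common to most mRNAs, each mRNA was also placed relative to it. The relative log2 is the log2 ratio of Dhh1 IP to UT IP after scaling the libraries on their mRNAs alone with TMM factors, so that an mRNA that shares the common shift lies near 0. A relative log2 of -1 is therefore close to no difference on the scale of all reads, not a loss from the Dhh1 IP. The median of the relative log2 was 0.02, its quartiles were -0.30 and 0.37, and 90% of mRNAs lay between the 5th percentile of -0.68 and the 95th percentile of 0.99. At an FDR under 5% in edgeR, 209 mRNAs lay above the common shift (4.5% of 4642) and 332 lay below it (7.15%). All 209 mRNAs above the shift were also among those enriched on the scale of all reads, and 0 of the 332 below it were. Both scales use the same counts and differ by about the common shift, so this was largely given and adds no support.

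**Figure D1:**
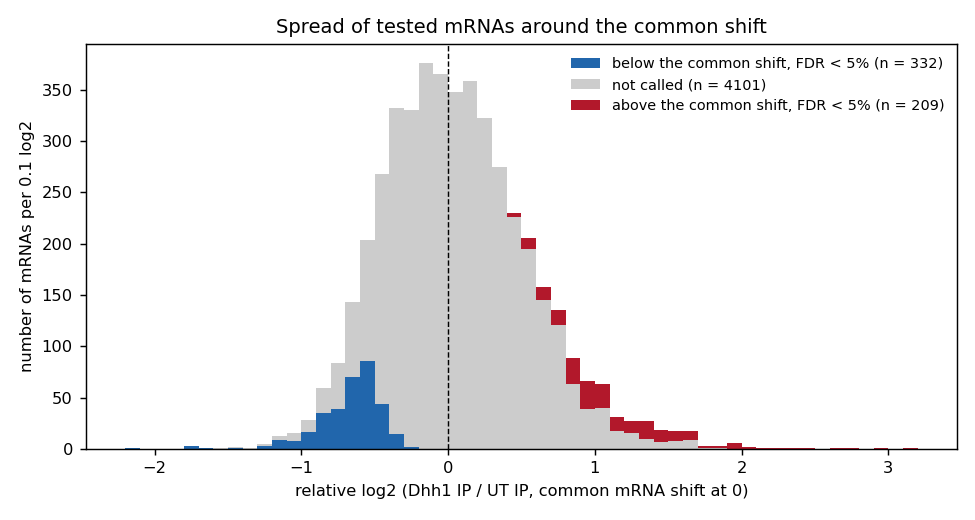
Number of tested mRNAs (y axis) by relative log2 of Dhh1 IP over UT IP (x axis, bins of 0.1), with the 209 called above the common mRNA shift in red, the 332 called below it in blue and the others in grey. The quartiles are -0.30 and 0.37, and the right tail reaches farther than the left.

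The 12 mRNAs highest above the common shift were taken among called mRNAs with an average of 50 or more counts and with all Dhh1 IP libraries above all UT IP libraries relative to their mRNA totals. The average ran over both groups, so an mRNA could pass it through the group where it was high. Every UT IP count of the 12, except those of *MFA1*, was under 50. In all, 105 mRNAs met these conditions above the shift and 209 met the matching ones below it. Of all 4642 tested mRNAs, called or not, 1444 had every Dhh1 IP library above every UT IP library and 268 had every one below. Libraries were compared here on mRNA totals without TMM factors, where the median log2 of all mRNAs was 0.30. Separation was therefore easier to reach at the high end than at the low end. The ranking is continuous: the 12th mRNA, *QCR6*, had a relative log2 of 1.27 and the next ones, *CIK1* and *CLN1*, had 1.16 and 1.15.

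*DAT1* (YML113W), which encodes a protein that binds AT-rich DNA, headed the ranking with a relative log2 of 1.97 (SE, the standard error, 0.48, adjusted p = 0.00723 from edgeR). It had 207, 30 and 64 counts in Dhh1 IP replicates 1 to 3 and 15, 12 and 11 in the UT IP. Replicate 1 stood far above the other Dhh1 IP libraries, and without it the value was 1.11 (adjusted p = 0.0903 from edgeR), so its place at the top rests on that library.

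The Dhh1 IP counts of *ECL1* (YGR146C), whose product extends chronological life span, were 144, 88 and 96 against 20, 17 and 18 in the UT IP. Each Dhh1 IP replicate lay far above each UT IP library, where lying above was a condition of the choice. Its relative log2 was 1.66 (SE 0.33, adjusted p = 0.00165 from edgeR). This position was steadier than that of *DAT1*, with 1.55 to 1.74 when each library was left out.

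Transcriptional and cell cycle regulators followed. *MAD1* (YGL086W), a spindle assembly checkpoint protein, had 93, 92 and 84 counts in the Dhh1 IP and 21, 10 and 17 in the UT IP, for a relative log2 of 1.60 (SE 0.32). *MOT3* (YMR070W), a repressor of hypoxic genes, had 138, 113 and 96 counts against 12, 20 and 30, for 1.58 (SE 0.27). *PCL1* (YNL289W), a G1 cyclin of the kinase Pho85, had 183, 162 and 148 counts against 46, 21 and 26, for 1.53 (SE 0.22). For these mRNAs the Dhh1 IP libraries were close to one another and the UT IP libraries differed by larger ratios. Adjusted p-values from edgeR were 0.00187, 0.000381 and 8.09e-05.

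The chromatin proteins among the 12 were *SPT2* and *RLF2*. *RLF2* (YPR018W), the large subunit of the histone chaperone CAF-1, had 89, 87 and 72 counts against 14, 16 and 24 (relative log2 1.30, SE 0.29). *SPT2* (YER161C) had 159, 67 and 58 counts against 21, 24 and 9 (1.44, SE 0.33), and without Dhh1 IP replicate 1 its value was 1.02 and its adjusted p from edgeR was 0.0515. That the 2 groups of libraries did not overlap was a condition of the choice for both mRNAs.

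Products at the cell surface included *WSC4* and *MFA1*. *MFA1* (YDR461W), one of the genes for the a-factor pheromone, had 333, 283 and 255 counts in the Dhh1 IP and 63, 47 and 72 in the UT IP, a relative log2 of 1.38 (SE 0.23, adjusted p = 0.000268 from edgeR). *MFA2*, the other a-factor gene, was also above the shift, at 0.90, with 362, 387 and 354 counts against 117, 101 and 107. *WSC4* (YHL028W), of the cell wall stress sensor family, had 73, 123 and 66 counts against 22, 9 and 19 (1.52, SE 0.31).

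*SPL2* (YHR136C), a gene of the phosphate starvation response, had 110, 107 and 109 counts against 12, 33 and 20, for a relative log2 of 1.43 (SE 0.30). *HLR1* (YDR528W), involved in cell wall composition and osmotic stress, had 192, 131 and 163 counts against 45, 31 and 26, for 1.37 (SE 0.19). *QCR6* (YFR033C), a subunit of respiratory complex III, had 154, 102 and 97 counts against 22, 26 and 30, for 1.27 (SE 0.22). Their adjusted p-values from edgeR were 0.00275, 5.58e-05 and 0.000526.

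**Figure D2:**
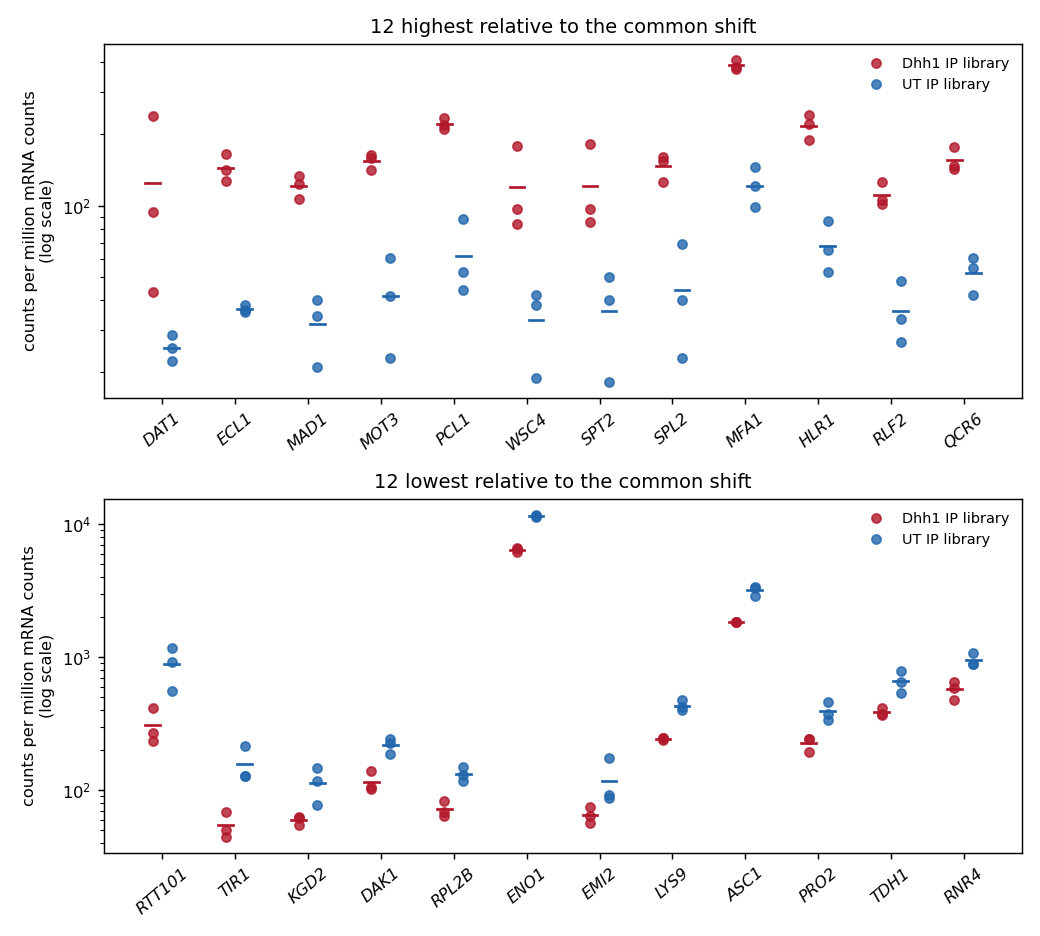
Counts scaled to each library's mRNA total (CPM, y axis, log scale) in each Dhh1 IP library (red) and UT IP library (blue) for the 12 mRNAs highest (top) and lowest (bottom) relative to the common shift, with a bar at the mean of each group of 3. By the rule of choice, red and blue points do not overlap for any of the 24 mRNAs. The Dhh1 IP points of *DAT1* are spread the widest.

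At the lower end stood metabolic enzymes and proteins of translation, many of them from abundant mRNAs. *ENO1* (YGR254W), which encodes the glycolytic enzyme enolase, had 5412, 4480 and 4491 counts in the Dhh1 IP and 6124, 5508 and 5572 in the UT IP. Its relative log2 was -1.13 (SE 0.08, adjusted p = 1.6e-08 from edgeR), and on the scale of all reads its log2 was -0.19. The libraries of each group lay close together. This mRNA thus received about as many reads from tagged as from untagged cells, while most mRNAs received more. *TDH1* (YJL052W), an isozyme of glyceraldehyde-3-phosphate dehydrogenase, had 326, 287 and 250 counts against 412, 309 and 265, for -1.05 (SE 0.14). *ENO1* and *TDH1* have near-identical paralogs, so the split of reads between copies is uncertain.

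*ASC1* (YMR116C), a protein of the small ribosomal subunit, had 1589, 1264 and 1249 counts in the Dhh1 IP and 1758, 1580 and 1424 in the UT IP. Its relative log2 was -1.09 (SE 0.10, adjusted p = 2.53e-07 from edgeR). *RPL2B* (YIL018W), a gene for a protein of the large subunit, had 72, 44 and 47 counts against 78, 62 and 58, for -1.14 (SE 0.22), and its reads could be split with its near-identical copy *RPL2A*.

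Amino acid synthesis was represented by *LYS9* and *PRO2*. *LYS9* (YNR050C), a saccharopine dehydrogenase of the lysine pathway, had 217, 164 and 167 counts against 221, 227 and 197, a relative log2 of -1.11 (SE 0.15). *PRO2* (YOR323C), of the proline pathway, had 212, 133 and 166 counts against 195, 162 and 228, for -1.07 (SE 0.16). Raw counts of the groups overlapped for both, and the groups parted only when scaled to mRNA totals.

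Other enzymes were *RNR4*, *KGD2*, *DAK1* and *EMI2*. *RNR4* (YGR180C), a small subunit of ribonucleotide reductase, had 417, 450 and 402 counts against 464, 515 and 439, for -1.02 (SE 0.14, adjusted p = 5.58e-05 from edgeR). *KGD2* (YDR148C), of the mitochondrial alpha-ketoglutarate dehydrogenase, had 48, 43 and 43 counts against 77, 37 and 58, for -1.19 (SE 0.27). *DAK1* (YML070W), a dihydroxyacetone kinase, had 93, 96 and 70 counts against 118, 115 and 92, for -1.18 (SE 0.20). *EMI2* (YDR516C), a hexokinase-like protein, had 56, 39 and 51 counts against 91, 44 and 43, for -1.12 (SE 0.30, adjusted p = 0.0145 from edgeR). It was the least secure of the 12: the adjusted p from edgeR was 0.0515 without Dhh1 IP replicate 1, 0.0711 without Dhh1 IP replicate 2 and 0.119 without UT IP replicate 1.

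The lowest values belonged to *RTT101* and *TIR1*. *RTT101* (YJL047C), the cullin of a ubiquitin ligase, had 363, 163 and 182 counts in the Dhh1 IP and 477, 267 and 582 in the UT IP, a relative log2 of -1.80 (SE 0.25, adjusted p = 4.43e-05 from edgeR). The deposited counts also divide each mRNA by length into 3 equal segments. Of the *RTT101* counts, 306, 136 and 153 in the Dhh1 IP and 461, 235 and 564 in the UT IP fell in the 3′ segment, whose relative log2 was -2.21. The 5′ and middle segments had -0.38 and 0.65 and did not pass the test (adjusted p = 0.686 and 0.538 from edgeR).

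*TIR1* (YER011W), a cell wall mannoprotein, had 39, 35 and 47 counts against 67, 61 and 107, for a relative log2 of -1.79 (SE 0.28, adjusted p = 0.000159 from edgeR). UT IP replicate 3 was the highest library for it, with 77 of the 107 counts in the 3′ segment. It kept its call with each library left out, with an adjusted p of at most 0.00257 from edgeR.

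The segments of an mRNA add up to the whole count by which the ranked mRNAs were chosen. That most segments lay on the same side was therefore largely given by the choice. Among the 12 highest mRNAs, the 5′, middle and 3′ segments each lay above the common shift of that segment for 12, 12 and 11 mRNAs. The exception was *MFA1*, whose middle segment had 2.05 (adjusted p = 2.33e-08 from edgeR) and whose 3′ segment had -0.04 (adjusted p = 0.978 from edgeR). For the 12 lowest, the segments lay below the shift for 12, 10 and 12 mRNAs, and the middle segments of *RTT101* and *RPL2B* were the exceptions. Fewer passed the test within a segment, where counts are lower: 6, 6 and 3 of the highest and 7, 5 and 9 of the lowest. Over all mRNAs the shares above and below the shift at an FDR under 5% in edgeR were 1.46% and 3.42% of 4302 in the 5′ segment, 2.32% and 3.92% of 4361 in the middle segment, and 1.44% and 2.41% of 4313 in the 3′ segment.

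Functions were described with 41 gene lists that had 5 or more tested members. The lowest medians were those of glycolysis, aminoacyl-tRNA synthetases, chaperones, amino acid synthesis and ergosterol synthesis, and the highest those of meiosis and sporulation (0.45 over 9 mRNAs, 1 of them above the shift), Mediator, cyclins, kinetochore and spindle, and SAGA and TFIID. Each list is given by its counts and median beside those of all tested mRNAs, of which 51.9% had a relative log2 above 0.

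Glycolysis and fermentation had the lowest median, at -0.72 for 18 mRNAs. Of these, 13 (72.2%, against 7.15% of all mRNAs) were below the common shift at an FDR under 5% and 0 were above it. Besides *ENO1* and *TDH1*, they included *PDC1*, the main pyruvate decarboxylase (-0.82, SE 0.06, with 25875, 19081 and 18988 counts against 22095, 20428 and 19034), *CDC19*, pyruvate kinase (-0.92), and *PGK1*, phosphoglycerate kinase (-0.86). *HXK1*, a hexokinase, had the highest value among members with an average of 50 or more counts, -0.02 (adjusted p = 0.97 from edgeR). The list had a high input level, with a median log2 CPM of 6.50 in the UT input, where all mRNAs had 1.13. With the median of mRNAs of like input level subtracted, the median of the list was -0.36.

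Nearly all aminoacyl-tRNA synthetases, which charge tRNAs with their amino acids, shared a low position. The median was -0.61, 17 of 19 (89.5%) were below the shift, and all 19 had a value under 0. *FRS2*, a subunit of the phenylalanine enzyme, was the lowest at -0.98 (SE 0.15), with 195, 202 and 183 counts against 209, 217 and 206. *TYS1*, the tyrosine enzyme, was the highest at -0.30 (adjusted p = 0.13 from edgeR). Input levels again were high, with a median of 4.79, and subtracting the median of mRNAs of like input level left -0.19.

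Ribosomal proteins of the cytosol had a median of -0.30 over 121 mRNAs, with 23 below the shift (19.0%) and 0 above it. *RPL3* (-0.59) and *RPP0* (-0.62), each encoded by a single gene of the large subunit, were among those called. Most of the others come from pairs of near-identical genes whose reads cannot be divided with certainty. *RPL39* had the highest value among members with an average of 50 or more counts, 0.48 (adjusted p = 0.18 from edgeR). Translation factors had a median of -0.24, and 7 of 32 were below the shift (21.9%). They included *YEF3*, elongation factor 3 (-0.77, SE 0.07), with 12142, 9301 and 9307 counts against 9690, 9678 and 9226, and *PAB1*, the poly(A)-binding protein (-0.61). With mRNAs of like input level as the reference, the translation factors had a median of 0.06 and the ribosomal proteins -0.16.

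Biosynthesis and protein folding also lay low. Amino acid synthesis had a median of -0.46 and 34 of 80 mRNAs below the shift (42.5%), among them *TRP5* (-0.96) and *THR1* (-0.87) beside *LYS9* and *PRO2*. *ARO9*, an aromatic aminotransferase, had the highest value among its well-counted members, 0.79 (adjusted p = 0.22 from edgeR). Ergosterol synthesis had a median of -0.41 with 10 of 25 below (40%), led by *ERG4* at -0.84. Heat shock chaperones had -0.53 with 12 of 24 below (50%), led by *HSC82* at -0.87 (3901, 2643 and 2626 counts against 3339, 3003 and 2736). The vacuolar ATPase had -0.31 with 6 of 19 below, led by *VMA1* at -0.78. With mRNAs of like input level subtracted, the medians were nearer 0, at -0.23 for amino acid synthesis, -0.18 for ergosterol synthesis, -0.21 for chaperones and -0.06 for the vacuolar ATPase. None of these lists had a member above the shift.

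Cell wall and secreted proteins were mixed. Their median was -0.31, with 15 of 45 below the shift (33.3%) and 2 above it, *AGA2* (0.85) and *SCW11* (0.57). With mRNAs of like input level subtracted the median was -0.02, and with the UT input as reference it was 0.01. *AGA2* encodes the adhesion subunit of a-agglutinin and had 66, 100 and 67 counts against 25, 23 and 23. It belongs to the mating list as well, where *MFA1*, *MFA2* and *AGA2* were above the shift, *RAM2* (-0.89), a subunit of the farnesyltransferase, was below it, and the median of 31 mRNAs was 0.21. The phosphate list had a median of -0.08, with 4 of 24 above (*PHM6*, *SPL2*, *PHO89* and *VTC1*) and 2 below (*SND3* and *VTC4*).

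Regulators lay on the other side. The list of DNA-binding transcription factors, which also holds cofactors such as *SWI6*, had a median of 0.33 over 125 mRNAs, 98 of them with a value over 0. Above the shift at an FDR under 5% were 15 (12%, against 4.5% of all mRNAs), and 1 was below it, *WTM1* (-0.92), a transcriptional modulator. The 15 included *CUP2*, a copper-responsive activator (1.95, with 48, 45 and 30 counts against 6, 3 and 7), *INO2*, an activator of phospholipid genes (1.35), *MCM1* (1.07), *MIG2* (1.00) and *SWI6*, a cofactor of G1 transcription (0.95). The same counts on the scale of all reads gave 83 of the 125 as enriched (66.4%, against 38.8% of all mRNAs), which is no separate support.

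Cyclins and Cdk inhibitors had a median of 0.42, and 6 of 24 were above the shift (25%) with 0 below. The G1 cyclin *CLN1* had 188, 219 and 181 counts against 37, 66 and 41, a relative log2 of 1.15 (SE 0.22, adjusted p = 0.00128 from edgeR). *CLN3* (0.65), *PCL7* (1.64), *CKS1* (1.09) and the Cdk inhibitor *SIC1* (0.63) were the other members besides *PCL1*. Kinetochore and spindle mRNAs had a median of 0.41 with 9 of 72 above (12.5%) and 0 below, among them the kinesins *KIP3* (1.15) and *CIN8* (0.99) and the kinesin partner *CIK1* (1.16). *TUB2*, beta-tubulin, had the lowest value of this list among well-counted members, -0.62 (adjusted p = 0.20 from edgeR).

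The general transcription and chromatin machinery had similar medians: 0.42 for 25 Mediator mRNAs with 3 above (12%), 0.39 for 28 of SAGA and TFIID with 4 above (14.3%), 0.36 for 45 histone deacetylases and methyltransferases with 4 above (8.89%), and 0.29 for 58 of chromatin remodelling and NuA4 with 6 above (10.3%). The share of all mRNAs was 4.5%, a difference of a few members in each list. Below the shift in these lists were *CPR1* (-0.87), a cyclophilin of the Set3 complex, and *ARP4* (-1.73), an actin-related protein. *ARP4* had 72, 47 and 334 counts in the UT IP and 118, 63 and 70 in the Dhh1 IP, with 306 of the 334 in the 3′ segment. Without UT IP replicate 3 its value was -0.39 (adjusted p = 0.426 from edgeR), so this call rests on 1 control library. The adjusted p was also 0.0732 and 0.061 without Dhh1 IP replicates 2 and 3.

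Mitochondrial ribosomal proteins had a higher median than the cytosolic ones. It was 0.38, 62 of 71 had a value over 0, and 7 were above the shift (9.86%) with 0 below. *MRP10* (1.44, SE 0.33) had 74, 70 and 63 counts against 24, 10 and 7, and *MRPS17* (1.27) had 54, 43 and 44 against 8, 8 and 15. Their input level was low, with a median of 0.35, and with mRNAs of like level subtracted the median was 0.25. Among the 10 that averaged 50 or more counts the median was 0.17. These 10 ran from *MNP1* at -0.36 (adjusted p = 0.37 from edgeR) to *MRPS18* at 0.43 (adjusted p = 0.33 from edgeR). Respiratory chain subunits had a median of 0.05, with 1 above (*QCR6*) and 1 below (*ATP1*, -0.50), and cytochrome oxidase assembly factors had 0.36. The latter had 0.14 with mRNAs of like level subtracted, 0.05 against the UT input and -0.09 among the 5 that averaged 50 or more counts.

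**Figure D3:**
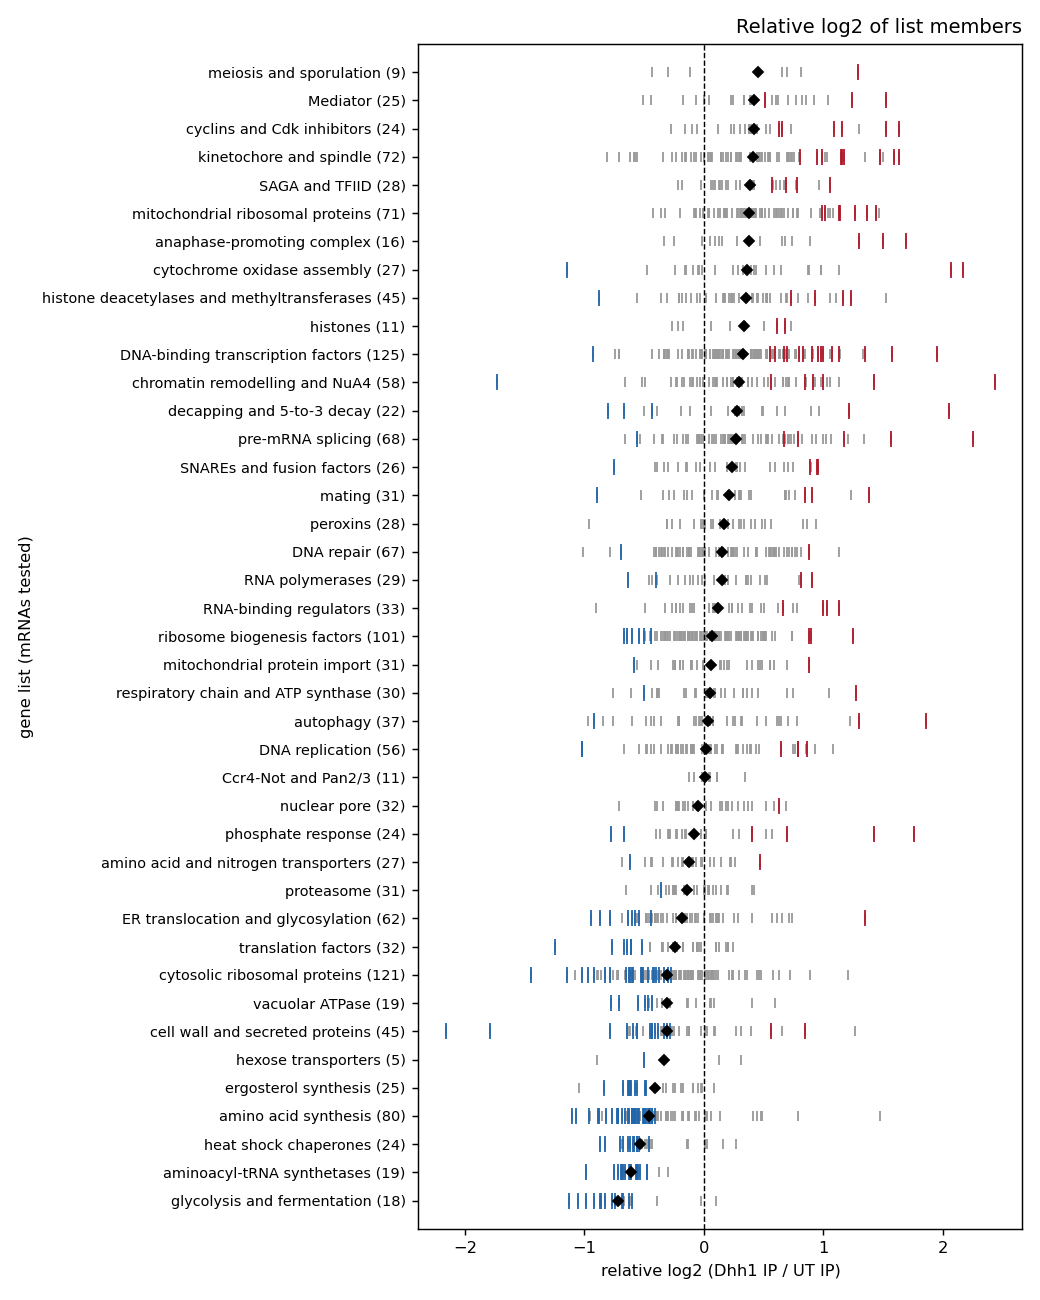
Relative log2 of Dhh1 IP over UT IP (x axis) for each tested member (tick) of 41 gene lists (y axis, number of members in parentheses), with members called above the common shift in red, below it in blue and the list median as a diamond. Medians run from -0.72 for glycolysis and fermentation to 0.45 for meiosis and sporulation, and the 9 lowest lists, from glycolysis to cytosolic ribosomal proteins, hold most of the blue ticks.

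For the mRNAs of the decay machinery itself, the shares called were set beside the 4.5% above and 7.15% below of all mRNAs, and with so few members they differ from these by a few mRNAs. Of 11 mRNAs of Ccr4-Not and Pan2/3, 0 were called in either direction by edgeR, with values from -0.12 to 0.35 and a median of 0.01. *CCR4* had 0.01 and *POP2*, the other deadenylase of the complex, had 0.35 (adjusted p = 0.305 from edgeR). Of 22 mRNAs for decapping and 5′-to-3′ decay, 2 were above the shift (9.09%) and 3 below (13.6%). *EDC1*, an enhancer of decapping, had 42, 32 and 45 counts against 9, 11 and 7 (1.22, SE 0.41), and *LSM7*, of the Lsm ring, had 16, 17 and 15 against 3, 1 and 1 (2.05, SE 0.74), at counts too low for the ranking. *SCD6*, a translation repressor, had -0.67 and *XRN1*, the 5′-to-3′ exonuclease, had -0.43, and the counts of the 2 groups overlapped for both.

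*DHH1* (YDL160C), the gene of the tagged protein, was below the common shift in its own IP. It had 296, 210 and 253 counts in the Dhh1 IP and 237, 252 and 234 in the UT IP, a relative log2 of -0.80 (SE 0.14, adjusted p = 0.000714 from edgeR). From the 5′ to the 3′ segment its values were -0.43, -1.06 and -0.94. Only the Dhh1 IP cells carry the tag on Dhh1, and the inputs are of untagged cells. Whether the level of *DHH1* mRNA itself differed between the strains was not tested. Among 33 mRNAs of RNA-binding regulators, 4 were above the shift (12.1%) and 0 below. They were *VTS1* (1.03), which recruits the deadenylase to stem-loops, *PBP2* (1.13), *RBS1* (1.00) and *WHI4* (0.67), a regulator related to the cell size factor Whi3. *MPT5*, the gene of Puf5, had 17, 14 and 10 counts against 6, 8 and 7 (0.08, SE 0.50), so that its position could not be told at this depth.

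Position relative to the shift moved with mRNA abundance. In the quintile of mRNAs with the highest UT input level, the median relative log2 was -0.27, and 265 of 929 mRNAs were below the shift (28.5%) with 22 above (2.37%). In the lowest quintile the median was 0.22, with 40 above (4.31%) and 4 below (0.431%). A tested mRNA had a median of 235 counts per library in the highest quintile and 15.8 in the lowest, so small differences could be called mainly among abundant mRNAs. Across 4642 mRNAs, Pearson's r of the relative log2 with the log2 input level was -0.36, and it was -0.24, -0.30 and -0.23 in the 3 pairs of libraries taken alone. Each r was taken over mRNAs, and mRNAs are no independent replicates.

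Coding length bore a weaker relation. The shortest quintile, of 78 to 729 bases, had a median of 0.19 with 65 of 929 mRNAs above the shift and 25 below (2.69%), while the medians of the other quintiles lay between -0.03 and 0.05. The r with log2 coding length was -0.19, and -0.08 once the median of mRNAs of like input level had been subtracted.

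**Figure D4:**
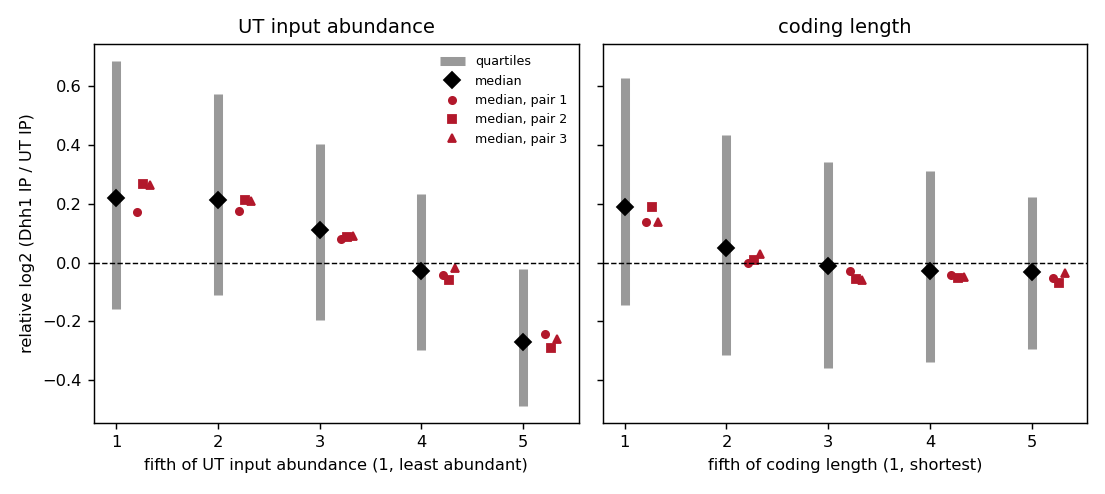
Relative log2 of Dhh1 IP over UT IP (y axis) in quintiles of the tested mRNAs by UT input abundance (left) and by coding length (right), with the median as a diamond, quartiles as a grey bar and the medians of the 3 pairs of libraries in red. The median is 0.22 in the lowest and -0.27 in the highest quintile of abundance, each pair has its lowest median in the highest quintile, and only the shortest quintile of mRNAs stands out by length.

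To see how far each replicate supports the ranking, Dhh1 IP replicates 1, 2 and 3 were each set against the UT IP library of the same number, which gives 3 pairs with no library in common. The 100 highest mRNAs of pair 1, among 2456 with an average of 50 or more counts, had a median of 1.21 there and of 0.45 and 0.36 in pairs 2 and 3. For the 100 highest of pair 2 the medians in pairs 1 and 3 were 0.47 and 0.51, and for those of pair 3 they were 0.43 and 0.46 in pairs 1 and 2. Between 63 and 67 of the 100 lay above 0 in both other pairs, where 25.5% to 25.7% of all 2456 did. The differences were thus smaller in the libraries that had not been used to choose the mRNAs.

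The low end was described in the same way. The 100 lowest mRNAs of a pair had medians from -1.05 to -0.96 in that pair and from -0.68 to -0.38 in the others. Between 70 and 79 of them lay below 0 in both other pairs, where 41.0% to 42.9% of all 2456 did. Across these mRNAs Pearson's r between pairs was 0.47 for pairs 1 and 2, 0.43 for pairs 1 and 3 and 0.47 for pairs 2 and 3, and over all 4642 mRNAs it was 0.25 to 0.30.

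**Figure D5:**
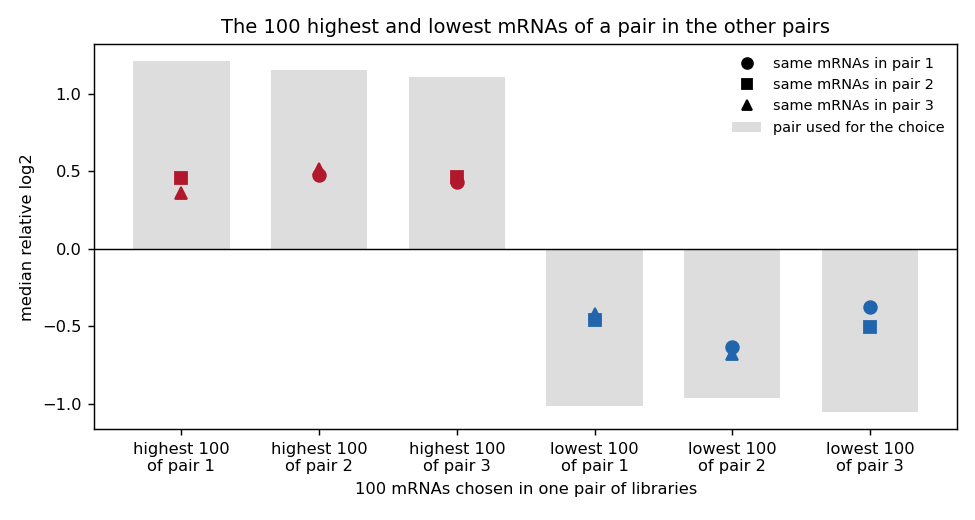
Median relative log2 (y axis) of the 100 highest and 100 lowest mRNAs chosen in one pair of Dhh1 IP and UT IP libraries (x axis), shown for the pair used for the choice (grey bars) and for the same mRNAs in the other pairs (points). All 12 points lie on the same side of 0 as the bar, between 0.36 and 0.51 for the highest and between -0.68 and -0.38 for the lowest.

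Medians of gene lists were also taken in each pair, where a median over many mRNAs is steadier than a single mRNA by construction. Glycolysis had medians of -0.78, -0.77 and -0.72 in pairs 1, 2 and 3, amino acid synthesis -0.43, -0.54 and -0.43, transcription factors 0.36, 0.24 and 0.36, and mitochondrial ribosomal proteins 0.28, 0.40 and 0.40. Of the 41 lists, 9 had pair medians of both signs. They were ribosome biogenesis factors (0.37, -0.10 and -0.20), RNA polymerases (0.28, -0.13 and 0.03), the respiratory chain (-0.15, 0.21 and 0.04), DNA repair (-0.11, 0.22 and 0.20), phosphate response, mitochondrial import, DNA replication, nuclear pore and autophagy. Others kept their sign over a wide range, such as Mediator (0.52, 0.05 and 0.46) and the anaphase-promoting complex (0.68, 0.47 and 0.08). *NSR1*, a nucleolar protein of the ribosome biogenesis list, had 431, 323 and 277 counts in the Dhh1 IP and 162, 295 and 324 in the UT IP, so that the groups overlapped.

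The number of mRNAs called depended on the replicates and on the reference. Without Dhh1 IP replicate 1, 2 or 3, edgeR placed 132, 114 or 117 mRNAs above the shift and 220, 192 or 207 below it. With the 2 UT inputs in place of the UT IP, 16 were above and 49 below. Medians were then closer to 0 for glycolysis (-0.38), the synthetases (-0.40), amino acid synthesis (-0.23) and cytosolic ribosomal proteins (-0.15). The same held for transcription factors (0.21), mitochondrial ribosomal proteins (0.23), cyclins (0.26) and Mediator (0.38). Other high lists came near the 0.01 of all mRNAs. These were meiosis (0.06), chromatin remodelling (0.08), histone deacetylases and methyltransferases (0.09), SAGA and TFIID (0.10), and kinetochore and spindle (0.11). Some lists moved away from 0, such as peroxins (from 0.17 to 0.29) and the respiratory chain (from 0.05 to 0.22).

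The other tagged IPs share the UT IP libraries with the Dhh1 IP, so their values against the UT IP are given side by side only, and differences were tested between the IPs directly, without the UT IP. At an FDR under 5% in edgeR, 9.31% of the 4642 mRNAs were higher in the Dhh1 IP than in the Ccr4 IP and 7.43% were lower, relative to the common shift of each. Against the Puf5 IP, 1.31% were higher and 6.83% lower.

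The translation apparatus differed from the Ccr4 IP, and so did other lists with high input levels. Relative log2 medians of the aminoacyl-tRNA synthetases were -0.61 for Dhh1, -1.21 for Ccr4 and -0.46 for Puf5, and 18 of 19 (94.7%) were higher in the Dhh1 IP than in the Ccr4 IP. For translation factors 22 of 32 (68.8%) were higher than in the Ccr4 IP, and for cytosolic ribosomal proteins 55 of 121 (45.5%), with 0 lower. *ASC1* stood at -1.09 here and at -2.02 in the Ccr4 IP, which differ by 0.93 (SE 0.10, adjusted p = 7.02e-07 from edgeR). RNA polymerase subunits were higher than in the Ccr4 IP for 14 of 29 (48.3%). Glycolysis was higher for 10 of 18 (55.6%, 1 lower) and the vacuolar ATPase for 8 of 19 (42.1%, 1 lower). Chaperones were higher for 9 of 24 (37.5%, 4 lower) and amino acid synthesis for 28 of 80 (35%, 3 lower). These differences between IPs were not set against mRNAs of like input level.

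Transcription factors went the other way, with 21 of 125 (16.8%) lower in the Dhh1 IP than in the Ccr4 IP and 1 higher. *TIS11*, an mRNA-binding protein of the iron response, had the largest such difference among the RNA-binding regulators, with 59, 32 and 45 counts in the Dhh1 IP and 322, 293 and 292 in the Ccr4 IP (-2.49, SE 0.24, adjusted p = 2.4e-07 from edgeR). *TIR1* was lower than in the Ccr4 IP as well, by 1.70 on the log2 scale (adjusted p = 0.000114 from edgeR).

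Histone mRNAs set the Dhh1 IP apart from the Puf5 IP. The median of 11 histone mRNAs was 0.34 for Dhh1, 0.50 for Ccr4 and 1.59 for Puf5, and 8 of 11 (72.7%) were lower in the Dhh1 IP than in the Puf5 IP. *HTZ1*, the H2A.Z variant, had 112, 92 and 80 counts in the Dhh1 IP and 654, 375 and 597 in the Puf5 IP. Chromatin remodelling and NuA4 mRNAs were lower than in the Puf5 IP for 14 of 58 (24.1%). *ECL1*, *MOT3* and *PCL1* were higher in the Dhh1 IP than in the Puf5 IP, by 1.70, 1.49 and 0.95 (adjusted p = 0.000474, 0.000208 and 0.0029 from edgeR).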

How the data were processed

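RNA from 3 Dhh1 IPs and 3 UT IPs was compared, with 3 Ccr4 IPs, 3 Puf5 IPs and 2 UT inputs in further comparisons. With SHRiMP the authors aligned the SOLiD reads to yeast, trimmed and filtered them, and deposited raw counts per RNA between published transcript ends, whole and in 3 equal segments by length. All count columns were matched to a sample. The type of each RNA was read from a deposited table, whose columns of log2 enrichment, the authors' own comparisons, were not used. Gene symbols and coding lengths came from RefSeq assembly GCF_000146045.2 for 4791 of 4792 mRNAs.

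Counts were tested with edgeR 4.0.16 (R 4.3.3, quasi-likelihood F test, Benjamini-Hochberg adjustment, prior count 1), in 1 fit of all 12 IP libraries with a term for the group, after edgeR's default filter. Enrichment used the total of all counted reads as library size, over 4921 RNAs. The relative log2 used mRNA rows alone with TMM factors. Standard errors are the unshrunken log2 divided by the square root of F. Segments needed a mean of at least 5 counts. In simulated libraries of 4642 mRNAs with a log2 change of 1.5, the test of the common shift recovered 88 of 100 raised and 76 of 100 lowered mRNAs. It made 7 false calls among the mRNAs left unchanged. The mRNAs called in the data had smaller medians, 1.06 above the shift and -0.62 below it, and changes of that size were not simulated.

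The members, the gene lists and the tests were chosen with earlier results of these data known. Named mRNAs are the 12 highest and 12 lowest by the rule in the text, the genes of the tagged proteins and strain markers. The highest or lowest members averaging 50 or more counts are named for some of the lists described, not for all. Further called members were chosen after their values were seen. Alternatives covered scaling, filters, cutoffs, DESeq2 1.42.0, the UT input as reference, a replicate block and the omission of each library. Replicates were biological. Sequences, codons and proteins were not analysed here, and coding length was used for length. Python 3.11.15, pandas 2.3.3, numpy 2.4.6 and matplotlib 3.10.9 were used.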

Additional observations from a re-analysis of the deposited data

Results flagged for a closer look

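These results were singled out because the relative log2 of a ranked mRNA, or of a gene of a tagged protein, differed between the Dhh1 IP and another tagged IP at an FDR under 5% in edgeR's direct comparison. *HLR1* was among the 12 highest in the Dhh1 IP and still lower there than in the Ccr4 IP (-0.56) and the Puf5 IP (-0.84). Differences from the Puf5 IP were 1.70 for *ECL1*, 1.49 for *MOT3* and 0.95 for *PCL1*. Differences from the Ccr4 IP were -1.70 for *TIR1*, -0.47 for *TDH1*, 0.27 for *ENO1* and 0.93 for *ASC1*. *DHH1* was lower in the Dhh1 IP than in the Ccr4 IP (-0.80) and the Puf5 IP (-1.94), where its counts were 414 to 633 and 610 to 980 per library against 210 to 296 in the Dhh1 IP. *CCR4* was lower in the Dhh1 IP than in the Ccr4 IP (-0.60), in which its own product was tagged. For *DHH1* and *CCR4* the strains compared differ in the tagged gene itself. The level of these mRNAs in each strain was not tested.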

How the results depend on the processing

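Of 4642 mRNAs, 1802 were enriched on the scale of all reads. This number fell to 67 with DESeq2 size factors, 54 with TMM factors over all RNAs, 155 with totals over mRNAs, 214 with totals without rRNA, 137 with the UT input as reference and 145 with a 4-fold cutoff. Omitting each library in turn gave 1265 to 1769, and a replicate block gave 1813. The median log2 of all mRNAs was 0.36 with totals without rRNA and 0.53 against the UT input, and 0.86 to 0.99 with each library left out. Above the common shift were 16 mRNAs against the UT input, 755 with totals over mRNAs without TMM, 67 at an FDR under 1%, 353 at an FDR under 10% and 105 among mRNAs averaging 50 or more counts, and 114 to 192 with each library left out. Below it were 49 against the UT input, 107 with totals over mRNAs without TMM and 169 at an FDR under 1%, and 192 to 301 with each library left out. Totals without TMM moved the median of all mRNAs to 0.30, and then 87.6% of the calls were above the shift in place of 38.6%; against the input the share was 24.6%, and with upper-quartile factors 48.9%. The replicate block gave 196 above and 320 below, of which 188 and 315 were also called without it. No pairing by replicate number was seen: correlations of same-numbered libraries' deviations from their group means were -0.000877, 0.00424 and 0.0101. The labels do not say whether same-numbered samples were prepared together.

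Against the UT input 16 of the 24 ranked mRNAs lost their call and none changed direction. *GAL11* (-0.20), *ARP4* (0.0381), *SNC2* (-0.21) and *RAM2* (0.0701), the highest or lowest well-counted members of their lists, reversed there; the cause was not tested. *DAT1* and *SPT2* lost their call without Dhh1 IP replicate 1, and *EMI2* under the settings given above and with totals over mRNAs without TMM (adjusted p = 0.0505 from edgeR). DESeq2, the 6 libraries alone, no filter, a replicate block and TMM or upper-quartile factors changed none of the 24 calls. With mRNAs of like input level subtracted, 7 of the 24 values moved by more than their SD over the 3 pairs of libraries: *ENO1* to -0.70, *ASC1* to -0.66, *RNR4* to -0.59, *TDH1* to -0.75, *PRO2* to -0.87, *LYS9* to -0.91 and *ECL1* to 1.31. The median of glycolysis, of the synthetases, of amino acid synthesis, of both classes of ribosomal proteins, of transcription factors, of cyclins and of kinetochore mRNAs kept its side of the median of all mRNAs in all 16 alternatives run. Of the 41 lists, 15 turned in at least 1 of the 16. Among those described, translation factors and the respiratory chain turned with mRNAs of like input level as reference, the phosphate response there and against the UT input, histones and decapping factors against the UT input (decapping factors also among mRNAs averaging 50 or more counts), ribosome biogenesis factors against the UT input and without Dhh1 IP or UT IP replicate 1, and Ccr4-Not in 7 alternatives. The others were the proteasome, mitochondrial import, DNA replication, DNA repair, nuclear pore, autophagy, SNAREs and amino acid transporters.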
